A study of Mus musculus with 6 samples.

Results

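The Ikaros family is a set of 5 zinc finger genes, Ikzf1 (Ikaros), Ikzf2 (Helios), Ikzf3 (Aiolos), Ikzf4 (Eos) and Ikzf5 (Pegasus). They were taken by symbol from a table of 40808 Entrez gene IDs, and all 5 had a row. The libraries were made from leukaemia cells of the spleen of mice that had been given a bone marrow transplant, per the labels' protocols. There were 2 groups of 3 libraries, one labelled as without Dox (replicates 4, 5 and 6) and one labelled as on Dox (replicates 10, 11 and 12). The labels do not spell out Dox, and they give no dose, duration, transgene, genotype, strain, sex or age for donors or recipients. The study's title concerns the control of NOTCH receptors by UVRAG, ITCH and the ESCRT machinery. Nothing in the labels says that the libraries of a group came from separate mice, so the p-values measure the spread between these libraries, which may be technical.

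Ikaros proteins bind DNA through a cluster of zinc fingers near the N terminus and pair with each other through a second cluster at the C terminus. Ikaros itself is needed for lymphocyte development and recruits chromatin complexes, chief among them the NuRD deacetylase and remodelling complex, to the genes it binds. In T cell leukaemia it is known as a tumour suppressor that holds down genes switched on by Notch, partly because its DNA motif shares a core with the motif of RBPJ, the DNA-binding partner of Notch. Helios is best known in T cells, regulatory T cells and their precursors, Aiolos in B cells and plasma cells, Eos in regulatory T cells, and Pegasus is broadly expressed and binds a different motif.

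The relatedness of the members is shown by the coding sequence of the second zinc finger counted from the N terminus, read 5′ to 3′ from a reference transcript of each gene (GENCODE M21, GRCm38). Capitals mark the codons of the 2 cysteines and 2 histidines that hold the zinc ion.
Ikzf1: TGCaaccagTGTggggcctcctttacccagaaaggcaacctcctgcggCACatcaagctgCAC
Ikzf2: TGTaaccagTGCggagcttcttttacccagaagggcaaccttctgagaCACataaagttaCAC
Ikzf3: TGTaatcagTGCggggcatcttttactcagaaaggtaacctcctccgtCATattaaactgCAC
Ikzf4: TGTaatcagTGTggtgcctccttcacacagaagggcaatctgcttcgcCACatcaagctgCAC
Ikzf5: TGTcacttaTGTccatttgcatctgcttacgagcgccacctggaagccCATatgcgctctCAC
Over these 63 bases Ikzf1 was identical to Ikzf2 at 81.0%, to Ikzf3 at 81.0% and to Ikzf4 at 84.1%, but to Ikzf5 at 41.3%. The 4 members other than Ikzf5 were 76.2% to 84.1% identical to each other. Fingers were paired by number, and finger 2 of Ikzf5 need not be the counterpart of finger 2 in the others. It was 33.3% to 47.6% identical to any of the first 3 fingers of the other members, while finger 1 of Ikzf5 was 60.3% to 65.1% identical to their finger 3. The longest run of identical bases between annotated transcripts of 2 members was 32, between Ikzf2 and Ikzf4, and the other pairs shared at most 26.

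All members lie on different parts of the genome. In GENCODE M21 (GRCm38, the build named in the submitters' processing notes) Ikzf1 spans chr11:11685003-11772926 on the plus strand, and Ikzf3 spans chr11:98464902-98546031 on the minus strand. Ikzf2 spans chr1:69531214-69687245, Ikzf4 chr10:128630843-128645991 and Ikzf5 chr7:131388652-131410521, all on the minus strand. The libraries read the 3′ end of each mRNA, so splice forms that end in the same exon are counted together. Of the 6 coding transcripts annotated for Ikzf1, 3 share the last coding exon, and of the 7 for Ikzf2, 6 do. The deposited counts are per gene, so splice forms could not be told apart, whether or not they share this exon. A short Ikaros form that lacks DNA-binding fingers is thus counted with the full-length form. An antisense RNA gene, Gm29114, overlaps the last exon of Ikzf2. The last exon of Ikzf5 overlaps 2 annotated coding genes, Fgfr2 on the same strand and Pstk on the opposite strand. Fgfr2 had 1 to 7 counts and Pstk 14 to 85 counts per library, against 842 to 1185 for Ikzf5, and whether the authors' counting used strand is not given in the sources used here.

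Total counts ran from 5541486 to 8725767 per library, and 3 counts, taken as the floor of detection, corresponded to 0.31 to 0.61 normalized CPM (counts scaled to a common, TMM-adjusted library total). The floor covers counting error only. The libraries with Dox were noisier: the common biological coefficient of variation, which is the spread between replicates beyond counting noise, was 0.516 with Dox and 0.190 without. The groups differed in much else. Among the 18 T cell markers 16 fell and none rose with Dox, and among the 14 B cell markers all 14 rose, as did all 12 neutrophil markers. The summed level of the T cell markers ran from 3395 to 3660 CPM without Dox and from 318.4 to 412.1 CPM with Dox, and that of the B cell markers from 55.1 to 60.7 and from 2516 to 2667 CPM. Defining T cell genes were still detected with Dox (Cd3d, 108 to 171 counts) and defining B cell genes without it (Ms4a1, 26 to 28 counts). Haemoglobin genes took 8.61% to 9.04% of counts without Dox and 14.1% to 15.9% with Dox. A set of 4 Y-linked genes had 545 to 801 counts in sum without Dox and 0 with Dox. Counts of Xist, which coats a silenced X chromosome, were 193 to 324 without Dox, so those libraries held both, and 3347 to 5669 with Dox. The parts of Dox, of the sex or source of the cells and of cell makeup in any difference below cannot be told apart in this design, and fewer cells of a type cannot be told from less RNA per cell.

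Of the 5 members, 2 fell with Dox (Ikzf1 and Ikzf2), 1 rose (Ikzf3), and 2 did not pass the threshold (Ikzf4 and Ikzf5). The test was edgeR's quasi-likelihood test on counts with Benjamini-Hochberg adjustment over all 14110 tested genes and a threshold of 0.05. All 5 members passed the filter on low counts. Under the same test 45.6% of all tested genes were called, 23.6% higher and 22.1% lower, so that 3 called of 5 is near the background for these libraries. For 4 of the 5 members the 2 groups were fully separated, and so they were for 59.6% of all tested genes. The median log2 fold change was -0.73 over the 5 members and 0.07 over all tested genes.

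**Figure D1:**
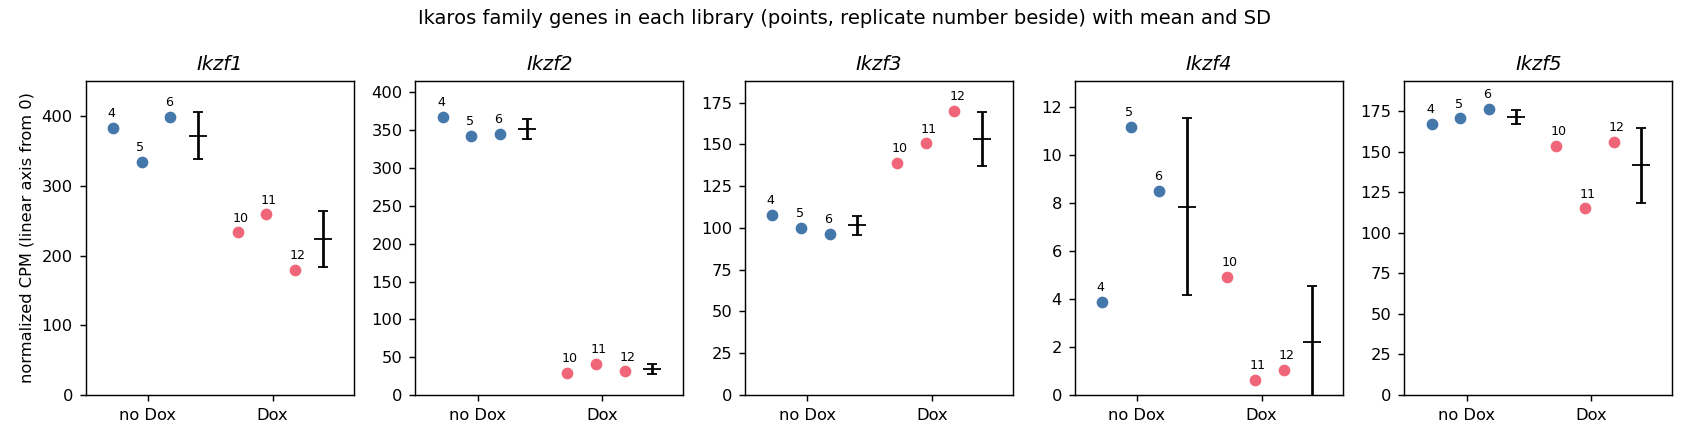
Normalized CPM (linear axis from 0, a separate scale for each gene) of the 5 Ikaros family genes in each library; points are libraries with their replicate number, and the black mark and bar are the group mean and SD (the bar of Ikzf4 with Dox runs below 0 and is clipped). Ikzf2 falls from 343 to 367 CPM to 29.0 to 41.3 CPM, while Ikzf3 is higher in each library with Dox and only Ikzf4 overlaps between the groups.

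Ikzf2 (Entrez gene 22779), which encodes Helios, changed most. In the order of replicates given above, its counts were 2462, 1692 and 2038 without Dox, against 213, 401 and 236 with Dox. After scaling these were 367, 343 and 346 CPM without Dox and 29.0, 41.3 and 31.1 CPM with Dox. The 3 libraries without Dox were close together and all lay far above those with Dox. The mean fell from 352 ± 13.5 to 33.8 ± 6.57 CPM (SD, n = 3 each), a 10.4-fold decrease. edgeR put the log2 fold change at -3.38 ± 0.19 (SE; adjusted p = 1.92e-06). Calls at least as large in this direction made up 2.41% of all tested genes. Over 17 alternatives the log2 fold change ran from -4.06 to -3.07 and the adjusted p-value reached 6.2e-05 at most. In the same libraries the tested T cell markers had a median log2 fold change of -3.07, close to that of Ikzf2. Bcl11b, a T lineage factor, fell by 2.82 in log2 units (SE 0.18; edgeR adjusted p = 3.35e-06). Whether the lower Helios level came with fewer T lineage cells was not tested.

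Ikzf1 (Entrez gene 22778), which encodes Ikaros, had the highest level of the family in 5 of the 6 libraries, the exception being replicate 5, where Ikzf2 was higher. Its counts were 2569, 1650 and 2354 without Dox, against 1714, 2517 and 1363 with Dox, and only after scaling did the groups separate. The scaled values were 383, 334 and 399 CPM without Dox and 233, 259 and 180 CPM with Dox, with replicate 12 the lowest. The mean went from 372 ± 33.7 to 224 ± 40.5 CPM (SD, n = 3 each), a 1.66-fold decrease. edgeR put the log2 fold change at -0.73 ± 0.18 (SE; 95% confidence interval -1.13 to -0.34; adjusted p = 0.0070). In size this was below the middle of the table, since 36.6% of tested genes had a smaller log2 fold change in either direction. The call for Ikzf1 was lost with scaling by library size only (log2 fold change -0.42, adjusted p = 0.085), under which the median over all genes was 0.31 higher.

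Ptprc encodes CD45, a surface phosphatase of all white blood cells, and gave a reference within each library. Ptprc itself fell, from 575 ± 17.5 to 380 ± 50.4 CPM (SD, n = 3 each; edgeR log2 fold change -0.60 ± 0.15, SE, and adjusted p = 0.0089), and with library size only this call was lost (-0.29, adjusted p = 0.12). The log2 ratio of Ikzf1 to Ptprc counts stood at -0.63, -0.76 and -0.50 in the libraries lacking Dox, against -0.48, -0.60 and -1.23 under Dox. These ratios overlapped, with replicate 12 alone lower than the libraries without Dox. The mean difference was -0.14 (exact two-sided permutation p = 0.9, where 3 against 3 cannot give less than 0.1). It turned to 0.09 without replicate 12, and to 0.28 when the mean log2 count of 6 housekeeping genes replaced Ptprc. Relative to Ptprc a difference in Ikzf1 was thus not detected, whereas Ikzf2 remained lower by 2.79 and Ikzf3 higher by 1.19 on the log2 scale. For both the groups did not overlap (exact permutation p = 0.1 each, the smallest possible). Ikzf5 was higher with Dox by 0.32 relative to Ptprc (exact permutation p = 0.3). Relative to the housekeeping genes it was higher by 0.73 and its groups did not overlap (exact permutation p = 0.1), the opposite direction to its CPM.

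Ikzf3 (Entrez gene 22780), which encodes Aiolos, moved the opposite way. Its counts were 723, 494 and 570 without Dox, against 1019, 1463 and 1292 with Dox. The scaled values were 108, 100.1 and 96.6 CPM without Dox and 139, 151 and 170 CPM with Dox. All 3 libraries with Dox lay above all 3 without. The mean rose from 102 ± 5.77 to 153 ± 16.0 CPM (SD, n = 3 each), a 1.51-fold increase. edgeR put the log2 fold change at 0.59 ± 0.16 (SE; 95% confidence interval 0.23 to 0.95; adjusted p = 0.013). The call rested on all libraries without Dox: the adjusted p-value was 0.055 without replicate 4, 0.12 without replicate 5 and 0.11 without replicate 6, and it was also lost without a low-count filter (log2 fold change 0.45, adjusted p = 0.13) and with the trend with transcript length removed (0.42, adjusted p = 0.056). The direction was the same in all 17 alternatives. The B cell markers of the same libraries had a median log2 fold change of 5.64. Pax5, the factor that commits cells to the B lineage, went from 14.9 ± 1.91 to 504 ± 80.4 CPM (SD, n = 3 each; edgeR log2 fold change 5.09 ± 0.21, SE, and adjusted p = 5.38e-07). Set beside these, Ikzf3 was already at 102 CPM in the libraries without Dox, where the 14 B cell markers together summed to at most 60.7 CPM. Which cells carried the Aiolos transcripts in either group was not tested.

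Ikzf4 (Entrez gene 22781), which encodes Eos, had the fewest counts of the family. Its counts were 26, 55 and 50 without Dox, against 36, 6 and 8 with Dox. The scaled values were 3.88, 11.2 and 8.48 CPM without Dox and 4.90, 0.62 and 1.05 CPM with Dox. The groups overlapped, because replicate 10 with Dox was above replicate 4 without Dox. edgeR put the log2 fold change at -1.84 ± 0.84 (SE; 95% confidence interval -3.72 to 0.04; adjusted p = 0.10). Without replicate 10 the log2 fold change was -3.23 and passed the threshold (adjusted p = 0.012). Without a low-count filter the log2 fold change of Ikzf4 was -1.95 and passed narrowly (edgeR adjusted p = 0.0496). The call for Eos thus turned on replicate 10 and on the filter.

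Ikzf5 (Entrez gene 67143), which encodes Pegasus, had the smallest fitted change of the 5. Its counts were 1122, 842 and 1040 without Dox, against 1130, 1118 and 1185 with Dox. The scaled values were 167, 171 and 176 CPM without Dox and 154, 115 and 156 CPM with Dox. The groups did not overlap, by a narrow margin, with replicate 11 the lowest. The means were 171 ± 4.49 and 142 ± 23.1 CPM (SD, n = 3 each). edgeR put the log2 fold change at -0.28 ± 0.17 (SE; 95% confidence interval -0.66 to 0.11; adjusted p = 0.22), and it turned to 0.03 with scaling by library size only.

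**Figure D2:**
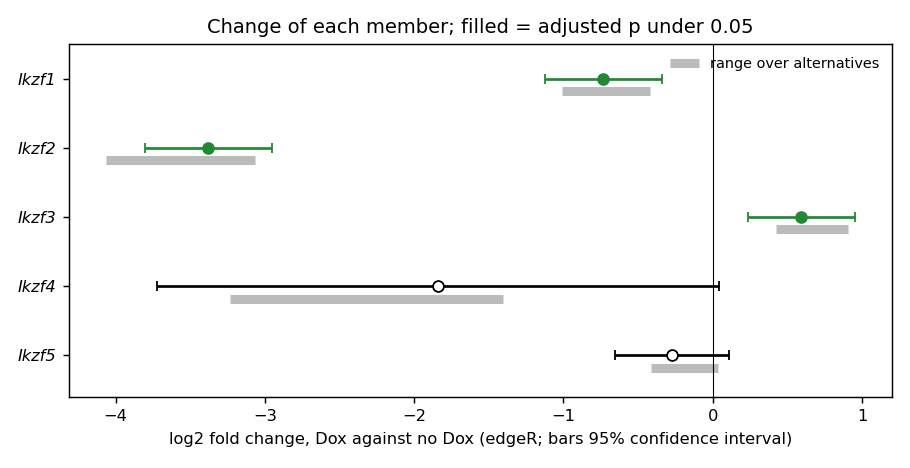
Log2 fold change with Dox against without Dox for the 5 members (points), with the 95% confidence interval from edgeR (thin bars) and the range over the alternatives (grey bars); filled points passed an adjusted p of 0.05. Ikzf1 and Ikzf2 lie below 0, Ikzf3 lies above it, and the intervals of Ikzf4 and Ikzf5 include 0.

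The makeup of the family is a measure that does not depend on how libraries are scaled. The libraries read 1 end per transcript, so counts were set beside each other without dividing by length. Log2 fold changes over all genes did trend with transcript length, and the fitted trend was 0.75 at the length of Ikzf2 and 0.20 to 0.35 at those of the other members. Ikzf2 held 35.7%, 35.7% and 33.7% of the family's counts without Dox and 5.18%, 7.28% and 5.78% with Dox. Ikzf3 held 10.5%, 10.4% and 9.42% without Dox and 24.8%, 26.6% and 31.6% with Dox. The share of Ikzf2 was lower and that of Ikzf3 higher in each library with Dox. Ikzf5 went from a mean of 17.1% ± 0.77 to 25.6% ± 4.65 (SD, n = 3 each), also without overlap. For these 3 genes the exact two-sided permutation p-value was 0.1, the smallest possible, so no share could pass 0.05 in this design. The share of Ikzf1 averaged 37.0% ± 2.03 without Dox, against 40.3% ± 6.30 (SD, n = 3 each) with it, a difference within the spread (exact permutation p = 0.5). Ikzf4 held 1.16% at most. Shares sum to the whole, so a smaller share of Ikzf2 makes the others larger. Among the members other than Ikzf2, a total chosen after seeing the data, Ikzf5 held 26.3% ± 1.25 without Dox and 27.2% ± 4.70 under it (SD, n = 3 each; exact permutation p = 0.9). By that total Ikzf1 went from 56.9% ± 2.34 to 42.9% ± 7.01, and Ikzf3 from 15.6% ± 1.19 to 29.5% ± 3.78 (SD, n = 3 each), both without overlap (exact permutation p = 0.1, the smallest possible).

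**Figure D3:**
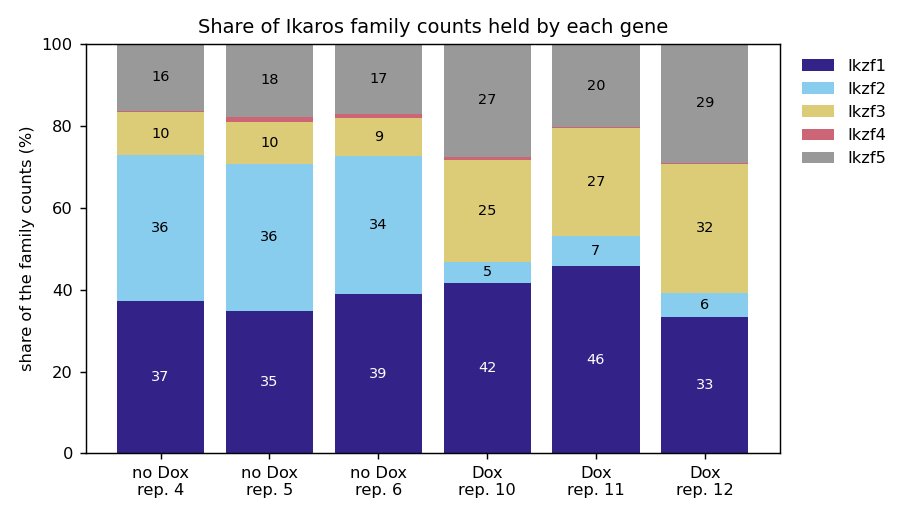
Share of the counts of the 5 Ikaros family genes (vertical axis, percent) held by each gene in each of the 6 libraries (bars, groups side by side with replicate number). The Ikzf2 segment shrinks from 33.7% to 35.7% without Dox to 5.18% to 7.28% with Dox, and the Ikzf3 and Ikzf5 segments are wider in each library with Dox, although the CPM of Ikzf5 is lower there.

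The order of the members by CPM differed accordingly. Without Dox, Ikzf1 and Ikzf2 led at 372 ± 33.7 and 352 ± 13.5 CPM (SD, n = 3 each). These did not differ beyond their spread, since Ikzf2 was above Ikzf1 in replicate 5. Ikzf5 (171 CPM), Ikzf3 (102 CPM) and Ikzf4 (7.83 CPM) followed, each below the one before in every library. With Dox, Ikzf1 led at 224 CPM in every library. Ikzf3 (153 ± 16.0 CPM) and Ikzf5 (142 ± 23.1 CPM) came next and did not differ beyond their spread, Ikzf5 being higher in replicate 10. Ikzf2 (33.8 CPM) and Ikzf4 (2.19 CPM) were lowest. Helios was thus not told apart from Ikaros without Dox and lay below Ikaros, Aiolos and Pegasus with Dox.

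The genes with the nearest profile to each member were taken among 7051 genes of at least median expression, by the root-mean-square difference of centred log2 CPM over the 6 libraries. The measure holds the difference between the groups as well as the spread within them. Nearest to Ikzf2 were Notch1, the Notch receptor gene, and the ribosomal protein genes Rps2 and Rpl36a, at differences of 0.11, 0.11 and 0.13. Their log2 fold changes were -3.21, -3.34 and -3.16. With the trend with transcript length removed, Ikzf2 was at -4.06, Notch1 at -3.91, Rps2 at -2.54 and Rpl36a at -2.21. That removal shifts a gene by its transcript length alone, and the profile distances were not computed again after it. Nearest to Ikzf1 were Cnot2, a subunit of the CCR4-NOT deadenylase, Pdcd6ip, which encodes the ESCRT partner ALIX, and D16Ertd472e (0.03, 0.04 and 0.06). Nearest to Ikzf3 were the corepressor gene Ncor1, the splicing factor gene Srrm2 and the remodeller gene Bptf (0.04, 0.05 and 0.06). The log2 fold changes of these last 3 were 0.54, 0.62 and 0.66, and with the trend with transcript length removed they turned to -0.13, -0.04 and -0.20, while Ikzf3 was at 0.42 and no longer passed the threshold. Nearest to Ikzf5 were Agpat3, Hsp90ab1 and Zcchc8 (0.04, 0.07 and 0.07), none of which passed the threshold as fitted. Agpat3 was called lower (-0.74, edgeR adjusted p = 0.012) after the trend with transcript length was taken out. Ikzf4 lies below the expression limit set for candidates, so genes of its own low level were not searched. The nearest of the more abundant genes, Mrpl27, Ciao1 and Slc44a1, differed from it by 0.51 to 0.52.

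The NuRD complex is the main partner of Ikaros and Helios on chromatin. Of its 15 genes listed, 14 were tested, 9 fell, 2 rose and 3 did not pass the threshold. These and the following counts stand beside the 23.6% of all tested genes called higher and the 22.1% called lower, and no list was tested against the rest. The median log2 fold change was -0.99. Rbbp4, a histone-binding subunit, went from 442 ± 18.3 to 146 ± 7.46 CPM (SD, n = 3 each; edgeR log2 fold change -1.60 ± 0.14, SE, and adjusted p = 2.08e-05). Mta1, a scaffold subunit, fell by 2.80 in log2 units (SE 0.31; edgeR adjusted p = 7.53e-05), and the deacetylase gene Hdac2 fell by 0.97 (SE 0.20; edgeR adjusted p = 0.0029). Chd4, the Mi-2β remodelling ATPase that binds Ikaros directly, was at 657 ± 29.6 and 553 ± 72.6 CPM (SD, n = 3 each), which did not pass the threshold (edgeR log2 fold change -0.25 ± 0.15, SE, and adjusted p = 0.20) and turned to 0.06 with library size only. Chd4 was called lower without replicate 12 (-0.38, adjusted p = 0.019 by edgeR) and once the trend with transcript length was taken out (-0.72, adjusted p = 0.0027). Its paralog Chd3 rose from 94.7 ± 11.2 to 233 ± 49.8 CPM (SD, n = 3 each; edgeR log2 fold change 1.30 ± 0.20, SE, and adjusted p = 0.00055). Mta3, the paralog of Mta1 known from B cells, rose by 1.43 in log2 units (SE 0.32; edgeR adjusted p = 0.0050). The other class I deacetylase gene of the complex, Hdac1, was at 106 ± 5.23 and 100.2 ± 8.70 CPM (SD, n = 3 each), with overlapping groups, an adjusted p of 0.73 by edgeR and a sign that depended on the scaling.

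Other partners and regulators moved unevenly. Among 7 tested genes listed for the Sin3 and CtBP corepressors, 1 rose, 1 fell and 5 did not pass the threshold. Subunits that Sin3 shares with NuRD were listed under NuRD only. Of these, Hdac2, Rbbp4 and Rbbp7 fell and Hdac1 did not pass. Ctbp2 rose by 1.26 in log2 units (SE 0.29; edgeR adjusted p = 0.0061) and the Sin3-associated gene Sap18 fell by 1.69 (SE 0.16; edgeR adjusted p = 2.53e-05). Ctbp1 was at 188 ± 21.2 and 234 ± 111 CPM and Sin3a at 47.8 ± 2.53 and 69.2 ± 20.8 CPM (SD, n = 3 each), with overlapping groups. Without replicate 12, which had 106 CPM against 304 and 291 in the other libraries with Dox, Ctbp1 was called higher (log2 fold change 0.65, edgeR adjusted p = 0.0030). Sin3a was called higher in 4 of 17 alternatives, its log2 fold change reaching 0.84 with library size only (edgeR adjusted p = 0.019). Ikaros activity is tuned by the kinase CK2, which phosphorylates it, and the phosphatase PP1, which reverses this. Of the 5 tested genes for CK2 and PP1 subunits, 4 fell and 1 did not pass. Csnk2a1, the catalytic subunit CK2α, fell by 1.14 in log2 units (SE 0.18; edgeR adjusted p = 0.00061). The PP1 catalytic subunit gene Ppp1ca fell by 3.35 (SE 0.39; edgeR adjusted p = 9.85e-05). The cereblon ubiquitin ligase, through which thalidomide-like drugs degrade Ikaros and Aiolos in human cells, had 2 genes higher, 2 lower and 1 not past the threshold. Its substrate receptor Crbn rose from 15.8 ± 5.39 to 36.4 ± 4.15 CPM (SD, n = 3 each; edgeR log2 fold change 1.20 ± 0.29, SE, and adjusted p = 0.0078) and its RING subunit Rbx1 fell by 1.56 (SE 0.20; edgeR adjusted p = 0.00019). The Crbn call was lost without replicate 5 (0.96, adjusted p = 0.053).

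**Figure D4:**
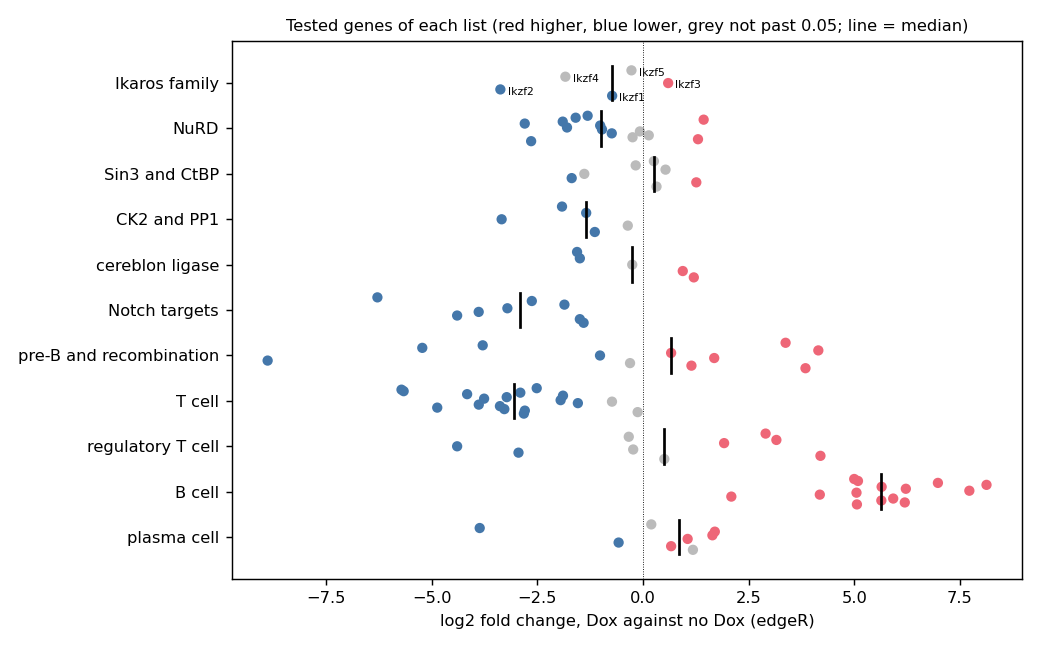
Log2 fold change with Dox against without Dox (horizontal axis) of each tested gene (points) in the Ikaros family, its partners, its regulators, its targets and cell type lists (rows), with the median of each list as a black line. Points of the T cell and Notch target lists lie left of 0, those of the B cell list right of 0, and the Ikaros family and NuRD rows hold genes on both sides.

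Notch target genes that Ikaros is known to hold down fell with Dox in all 8 cases tested (edgeR), with a median log2 fold change of -2.92, while Ikzf1 itself was at -0.73. The list's T lineage members, such as Ptcra and Il2ra, overlap in kind with the T cell markers that also fell. Ptcra encodes the pre-T cell receptor alpha chain, and its promoter is shown because it was the 1 of 6 promoters of the list matched in the RefSeq table (GRCm38.p6) that holds the letters TGGGAA, or TTCCCA on the other strand. These letters are common to the Ikaros and RBPJ motifs. Within 250 bases before a start they occur in 21.6% of 32851 promoters, and the shorter core GGGAA or TTCCC, which they contain, in 56.2%. The window at chr17:46763713-46763962, minus strand, reads as follows, with TGGGAA in capitals.
Ptcra: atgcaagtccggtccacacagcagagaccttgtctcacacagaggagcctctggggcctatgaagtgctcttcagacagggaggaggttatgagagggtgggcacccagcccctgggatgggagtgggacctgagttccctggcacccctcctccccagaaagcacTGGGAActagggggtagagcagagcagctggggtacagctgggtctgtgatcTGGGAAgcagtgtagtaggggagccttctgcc
The 2 matches begin 84 and 32 bases before the start. Ptcra was counted 210, 114 and 166 times without Dox, against 8, 0 and 0 times with Dox. Of the family, Ikzf1 and Ikzf5 were matched in that table, and neither held TGGGAA in its windows.

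Genes of the pre-B cell stage and of antigen receptor recombination, many of which Ikaros and Aiolos are known to bind, split in 2. Of 14 listed, 11 were tested, 6 rose, 4 fell and 1 did not pass the threshold. Those that fell included Dntt, which encodes the DNA polymerase TdT, at 911, 658 and 969 counts without Dox and 7, 0 and 0 with Dox. Rag1, a recombinase gene, had 1307, 859 and 1023 counts without Dox and 9, 72 and 42 with Dox (edgeR log2 fold change -5.23 ± 0.46, SE, and adjusted p = 1.85e-05). Both genes act in immature lymphocytes. The largest rise was that of Irf8, a factor of B cells and myeloid cells, from 31.8 ± 5.96 to 563 ± 50.2 CPM (SD, n = 3 each; edgeR log2 fold change 4.15 ± 0.20, SE, and adjusted p = 1.05e-06). The surrogate light chain gene Igll1, a classical gene silenced by Ikaros and Aiolos, had 0 counts in each library, which allows up to 0.61 CPM, and a difference was not detectable.

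Markers of the cells in which Helios, Eos and Aiolos are best known were compared last. Of 12 regulatory T cell genes, 9 were tested, 4 rose, 2 fell and 3 did not pass. Foxp3, the defining factor of these cells, had 2, 0 and 0 counts without Dox and 17, 23 and 17 with Dox (edgeR log2 fold change 4.20 ± 1.29, SE, and adjusted p = 0.023). The Foxp3 call was lost in 5 of 15 alternatives, with adjusted p-values up to 0.18, among them each fit that left out a library without Dox, the one without replicate 10, and the one without a low-count filter (4.07, edgeR adjusted p = 0.16). Il2ra, also a Notch target and an activation marker, fell by 4.40 in log2 units (SE 0.34; edgeR adjusted p = 8.17e-06). With a filter of at least 10 counts in every library, Ctla4, Icos, Il2ra and Tnfrsf18 alone of this list could be tested. Of these 1 was called, Il2ra. Of the 9 plasma cell genes, 8 were tested, 4 rose, 2 fell and 2 did not pass. Prdm1, the plasma cell regulator Blimp-1, rose by 1.70 in log2 units (SE 0.48; edgeR adjusted p = 0.016) and Sdc1, the surface marker CD138, fell by 3.87 (SE 0.76; edgeR adjusted p = 0.0023). Sdc1 had 7, 58 and 2 counts with Dox, and without replicate 11 its log2 fold change was -5.90. The Prdm1 call was lost without replicate 5, 6 or 10, with edgeR adjusted p-values up to 0.084. The summed level of this list was 330.9 to 359 CPM without Dox and 344 to 403 CPM with Dox, so the groups overlapped.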

How the data were processed

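The 6 libraries were made with the QuantSeq forward kit, which primes on the poly(A) tail, per the labels' protocols. The authors deposited raw read counts per Entrez gene ID, 1 column per library, with 0 columns left without a sample. STAR, featureCounts and GRCm38 are named in the submitters' processing notes. Versions, annotation and handling of multi-mapped reads are not given in the sources used here. Symbols came from a RefSeq gene table (GRCm38.p6), which matched 39374 of 40808 IDs (96.49%).

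Genes with few counts were removed by filterByExpr (its minimum count set to 10 and its minimum total to 15), and the rest were scaled with TMM and tested with edgeR 4.0.16 (R 4.3.3; glmQLFit and glmQLFTest, Benjamini-Hochberg over all genes). Each standard error is the log2 fold change divided by the root of F. Normalized CPM used TMM-scaled library sizes. Log2 ratios to Ptprc used counts plus 0.5. The procedure was tested on simulated data with the same spread in both groups, which cannot show how calls hold under the unequal spread of these libraries. Alternatives were other scalings, filters, DESeq2 1.42.0, limma-voom (limma 3.58.1) and leaving out libraries; removal of the length trend and division by the variance-to-mean ratio were chosen after seeing the data.

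The members and the 17 lists (written from general knowledge) were chosen with earlier results of these data known. Named genes are the members, 10 fixed genes, the largest called change in each direction of 7 lists, and the 3 nearest profiles per member. Chd3, Rag1, Rbbp4, Bcl11b, Pax5, Ms4a1, Cd3d, Ptcra, Pstk and Fgfr2 were named after their values were seen.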

Additional observations from a re-analysis of the deposited data

How the results depend on the processing

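No paired analysis was possible because no number is common to both conditions. Ikzf2 kept its direction and its call in all 17 alternatives. Scaled by library size alone, which raised the overall median by 0.31, Ikzf1 (log2 fold change -0.42) no longer passed, and Ikzf5 (0.033), Chd4 (0.060), Hdac1 (0.24), Hsp90ab1 (0.11) and Zcchc8 (0.087) reversed; the percent of called genes that are higher was then 64.3, against 51.6 as reported, 45.1 with limma-voom and 44.7 when no low-count filter was applied. Without a low-count filter Ikzf3 (0.45) no longer passed and Ikzf4 (-1.95) did. Removing the length trend took Ikzf3 to 0.42, below the threshold, and reversed Hdac1 (0.31), Ncor1 (-0.13), Srrm2 (-0.036), Bptf (-0.20) and Hsp90ab1 (0.048). Hdac1 also reversed with upper-quartile factors (0.022), under the strict filter that asks for 10 counts or more in each library (0.042) and with counts divided by the variance-to-mean ratio (0.042). Leaving out 1 library at a time, log2 fold changes ran from 0.47 to 0.63 for Ikzf3 and from -3.23 to -1.41 for Ikzf4, the called regulatory T cell genes from 2 (without NO_DOX replicate 5) to 5, and the called plasma cell genes from 3 (without NO_DOX replicate 5 or ON_DOX replicate 10) to 6. The Ikzf1 to Ptprc difference ran from -0.29 to 0.091 in these fits and was 0.28 against 6 housekeeping genes. With Ikzf2 left out of the family total, the difference in family share of Ikzf1 reversed (-14.0 percentage points). Under the strict filter the called genes for Sin3 and CtBP rose from 2 to 4, with all 7 still tested. For the lists that follow fewer genes could be tested. The called genes were then 6 for pre-B and recombination, 1 for regulatory T cells, 0 for NK cells and 7 for B cells. They were 4 for neutrophils, 4 for dendritic cells and 3 for megakaryocytes. Dividing by the variance-to-mean ratio left 1 called gene each for regulatory T cells and NK cells. Neither of these settings tested Ikzf4. Low counts limit what can be said of Ikzf4 and Foxp3.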

Other observations

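The remaining cell type lists were counted in the same fit, in which 23.6% of all tested genes were called higher and 22.1% lower. Of 6 tested NK cell genes 3 were higher and 1 was lower with Dox (edgeR, adjusted p of 0.05). The lower gene was Gzma, a cytotoxic granule protease named after its values were seen, which averaged 363 CPM without Dox and had 0 counts in each library with Dox. Of 12 macrophage and monocyte genes 6 were higher and 1 lower, of 9 tested dendritic cell genes 7 were higher and 1 lower, and of 6 tested megakaryocyte genes 5 were higher and none lower. Among 10 erythroid genes 5 were higher and 1 lower, and among 10 stromal and endothelial genes 4 were higher and 2 lower.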
